A study of Mus musculus with 12 samples.

Results

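Genes of lipid export, fatty acid carriage and acyl-CoA metabolism were followed in whole brain total RNA of 12 individual male C57BL/6 mice. The set holds 8 genes taken by symbol, Abca1, Fabp5, Acly, Acat2, Acat1, Acadm, Acadsb and Acot13, out of the 757 endogenous genes of the nCounter Glial Profiling Panel, which counts barcoded probes hybridised to RNA without amplification. In every mouse all 8 exceeded the level of the negative control probes. The groups were 4 CD73ko mice after transient middle cerebral artery occlusion (tMCAO), 4 CD73floxed mice after tMCAO and 4 CD73floxed mice after sham surgery. The occlusion lasted 50 min, and brains were taken on day 3 after either surgery. CD73 is the surface enzyme that makes adenosine from extracellular AMP. The floxed allele was carried by the controls, and the labels name neither a Cre driver nor the cells in which CD73 was lost. Nt5e, the gene of CD73, was not counted, so the genotype labels could not be checked. CD73ko mice with sham surgery were not analysed here, so surgery and genotype differ together between CD73ko tMCAO and floxed sham mice.

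Lipid handling in the brain is divided between export and use. ABCA1 passes cholesterol and phospholipid from cells to lipid-poor apolipoproteins, and its gene is a classical target of the sterol-sensing LXR receptors, through which cells that have taken up cholesterol-rich debris discharge it. FABP5 carries fatty acids within the cytosol. ACLY cleaves citrate to cytosolic acetyl-CoA, the carbon source of fatty acid and sterol synthesis, and ACAT2 joins acetyl-CoA units in the cytosol at the start of the mevalonate pathway. In mitochondria ACAT1 is the thiolase of ketone body and isoleucine breakdown, ACADM and ACADSB are the acyl-CoA dehydrogenases for medium-chain and short branched-chain substrates, and ACOT13 releases free fatty acids from acyl-CoA. The symbols Acat1 and Acat2 stand here for acetyl-CoA acetyltransferases and not for the enzymes that esterify cholesterol.

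The total count over the 770 genes of the panel lay between 724655 and 848853 in 11 libraries and was 293589 in flox sham replicate 4, so that library had the largest counting error. Its lowest count among the 8 genes was the 45 of Fabp5 (exact Poisson 95% interval 32.8 to 60.2, counting error only). Some defining markers of each of neurons, astrocytes, oligodendrocytes, microglia and endothelium were counted, though not every marker on the lists given below. Normalised counts are given below, scaled by edgeR's TMM factors to the average library, and a gene is called at a Benjamini-Hochberg adjusted p under 0.05 over the 757 genes in edgeR's quasi-likelihood test. Probe efficiencies differ, so levels are compared between mice and not between genes.

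Abca1 and Fabp5 were the members that rose after tMCAO, and none of the 6 acyl-CoA enzymes passed the test in any comparison. Against sham mice, 22.1% of all 757 genes were called in floxed and 22.7% in CD73ko tMCAO mice, and between the genotypes 0%. The 2 calls among the 8 members were thus near the share of all genes. The promoter of Abca1 is shown because Abca1 is the called gene for which a promoter sequence was at hand. It covers the 250 bases before a transcript start in RefSeq's GRCm38.p6 annotation, chr4:53159896-53160145 on the minus strand. The annotated span of Abca1 ends at base 53159988, inside this window, so an annotated start lies upstream of the one used. The promoter of Acadm, chr3:153944644-153944893 on the minus strand, is set beside that of Abca1 as an enzyme gene that did not pass. Acly, Acat2 and Acadsb also had a sequence and did not pass. Of these enzyme genes only Acadm held matches to a searched motif. Both promoters shown are written 5′ to 3′ with the searched motifs in capitals, and 5 of the 8 genes had a sequence in the table used.
Abca1: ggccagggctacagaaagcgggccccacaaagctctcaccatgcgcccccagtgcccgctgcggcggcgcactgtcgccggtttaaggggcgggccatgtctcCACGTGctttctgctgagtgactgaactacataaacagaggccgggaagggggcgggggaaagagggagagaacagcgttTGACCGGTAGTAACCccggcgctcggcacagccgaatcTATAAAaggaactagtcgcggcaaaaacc
Acadm: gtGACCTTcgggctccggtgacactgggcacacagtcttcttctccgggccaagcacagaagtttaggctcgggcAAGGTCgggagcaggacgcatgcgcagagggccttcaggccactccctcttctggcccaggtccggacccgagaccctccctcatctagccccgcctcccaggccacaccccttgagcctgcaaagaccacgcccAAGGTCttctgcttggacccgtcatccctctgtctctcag

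The motifs were searched on both strands and did not overlap in these windows. GGTTA and GGTCA with 5 free bases between them have the form of the repeat that LXR binds. The pair was chosen from knowledge of the Abca1 element, so its match in Abca1 was fixed in advance and is no finding. The pair occurred in the Abca1 promoter as GGTTACTACCGGTCA on the opposite strand, 67 to 53 bases before the start, and in 0.0457% of the 32851 mouse promoter windows of the same length. The Abca1 window also held the E-box CACGTG at 147 to 142 bases, found in 6.02% of windows, and the TATA box TATAAA at 29 to 24 bases, found in 12.4%. AAGGTC, a core element of orphan nuclear receptors, occurred at 3 places in the Acadm window. It was present, at any number of places, in 10.6% of all windows. This motif, too, was chosen with earlier results of these data known, so its match in Acadm is no finding either. Acly, Acat2 and Acadsb had no match to these motifs in their windows. These are letter matches and no measure of binding.

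The first comparison, of floxed tMCAO with floxed sham mice, asks how the control genotype responded to occlusion. Abca1 had 561, 598, 796 and 638 normalised counts in the 4 floxed tMCAO mice, against 451, 446, 398 and 519.8 in the 4 floxed sham mice. Every tMCAO mouse lay above every sham mouse, with flox tMCAO replicate 3 the highest of all 12 animals. The means were 648 ± 103 in floxed tMCAO and 454 ± 50.2 in floxed sham mice (SD, n = 4 each), a 1.44-fold difference (95% interval 1.21 to 1.72, log2 fold change 0.53 ± 0.12 SE, adjusted p = 0.00436). Without flox tMCAO replicate 3 the log2 fold change was 0.42 (adjusted p = 0.00903).

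Fabp5 had 171, 177, 152 and 188 normalised counts in floxed tMCAO mice, against 129, 116, 124 and 114 in floxed sham mice. The groups did not overlap, and flox tMCAO replicate 3, the mouse with the most Abca1, had the least Fabp5 of the tMCAO mice. The means were 172 ± 15.0 in floxed tMCAO and 121 ± 7.29 in floxed sham mice (SD, n = 4 each), a 1.41-fold difference (95% interval 1.20 to 1.66, log2 fold change 0.50 ± 0.11 SE, adjusted p = 0.00436). Abca1 stood at rank 72 and Fabp5 at rank 71 of the 757 genes by p-value. In whole tissue RNA, more cells of a type and more RNA per cell cannot be told apart. Both calls held under each of the 17 alternatives run for this comparison, with log2 fold changes between 0.42 and 0.59 for Abca1 and between 0.43 and 0.55 for Fabp5.

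**Figure D1:**
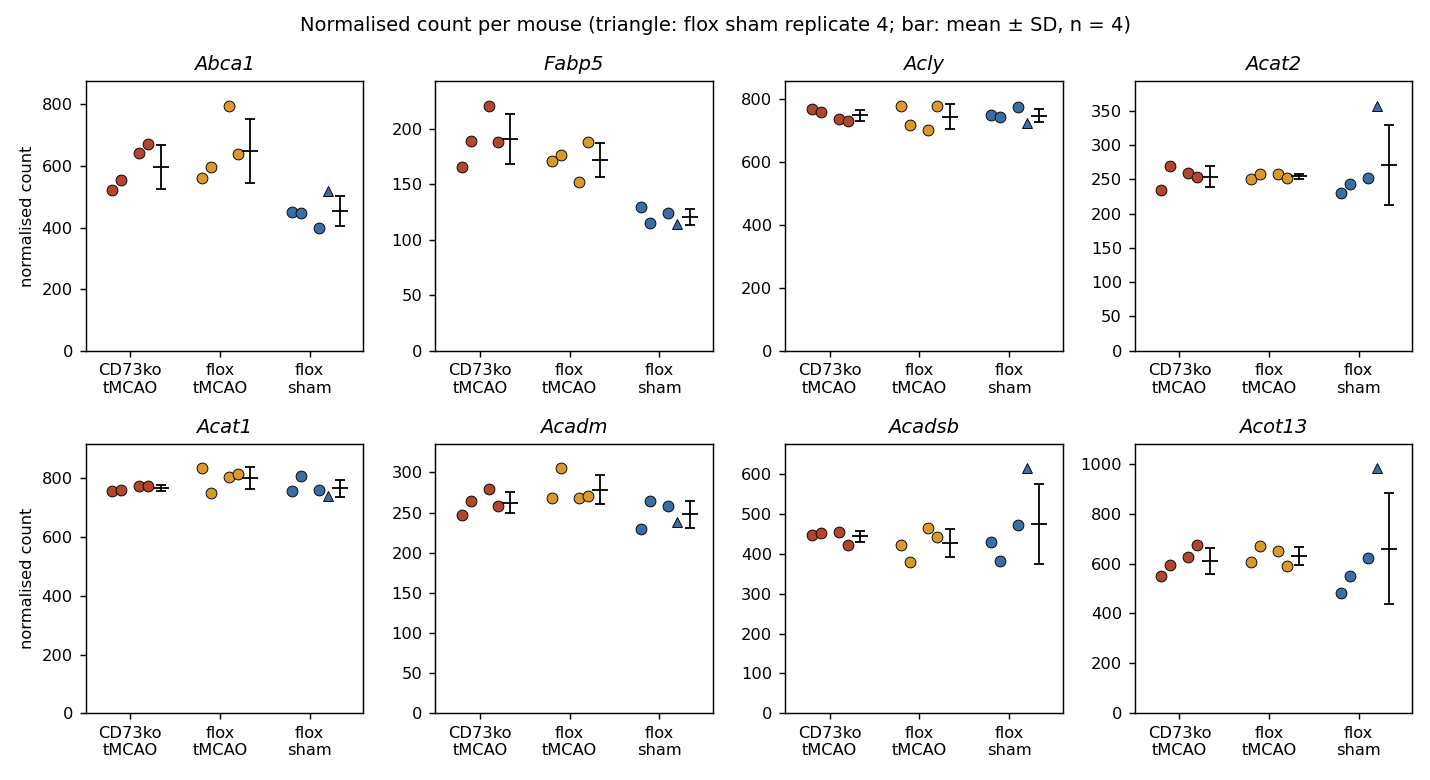
Normalised counts (y axis, from 0) of the 8 genes in each mouse, with CD73ko tMCAO, flox tMCAO and flox sham mice from left to right, points for mice, a triangle for flox sham replicate 4 and a bar for the mean ± SD (n = 4). All tMCAO mice lie above all sham mice for Abca1 and Fabp5, while the triangle is the highest point for Acat2, Acadsb and Acot13. For Abca1 the lowest CD73ko tMCAO mouse and the triangle are nearly level.

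So 2 of 8 members were called in this comparison, where 22.1% of all 757 genes were called (14.1% higher and 7.93% lower). The split of the calls was 107 higher and 60 lower, 97 and 105 with median centring of the samples, and 92 and 92 with scaling on the housekeeping genes, while the members called were Abca1 and Fabp5 in each. The 2 efflux and carrier genes had a median log2 fold change of 0.51, the 6 enzymes one of -0.02 and all genes one of -0.01. The median absolute log2 fold change was 0.06 for the enzymes and 0.17 for all genes.

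Among the cytosolic enzymes, Acly averaged 744 ± 39.7 normalised counts in floxed tMCAO and 748 ± 20.3 in floxed sham mice (SD, n = 4 each). Its log2 fold change of -0.01 had a 95% interval of -0.13 to 0.11, so a change of the size of Abca1's lay outside it. Acat2 ranged from 250.1 to 258 normalised counts in floxed tMCAO mice, against 230.5 to 358 in floxed sham mice. Its log2 fold change was -0.05 (95% interval -0.29 to 0.19, adjusted p = 0.776).

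Among the mitochondrial enzymes, Acat1 averaged 799.8 ± 36.0 normalised counts in floxed tMCAO and 764 ± 28.9 in floxed sham mice (SD, n = 4 each), a log2 fold change of 0.06 (95% interval -0.05 to 0.18). Acadm had 268, 305, 269 and 271 normalised counts in floxed tMCAO mice, against 229.6, 265, 258 and 238 in floxed sham mice. Its groups did not overlap, which held for 25.2% of all genes (14.5% higher in tMCAO), and the lowest tMCAO mouse was 267.9 against 264.8 for the highest sham. The log2 fold change of 0.16 (95% interval -0.01 to 0.34) did not pass (adjusted p = 0.17). In that group flox tMCAO replicate 2 lay apart from the other mice, and the log2 fold change was 0.11 at its lowest when single mice were left out.

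The log2 fold change of Acadsb was -0.12 (95% interval -0.37 to 0.12, adjusted p = 0.492), and that of Acot13 was -0.02 (95% interval -0.36 to 0.31, adjusted p = 0.928). In both genes flox sham replicate 4 was the highest of the sham mice. Acot13 had 606, 669.9, 651 and 591 normalised counts in floxed tMCAO mice, against 483, 550.1, 621 and 981 in floxed sham mice. Acadsb had 421, 379, 464 and 440.4 in floxed tMCAO mice, against 428, 380.4, 472 and 614 in floxed sham mice. The coefficient of variation among floxed sham mice was 33.7% for Acot13, 21.6% for Acat2 and 21.2% for Acadsb, and between 2.71% and 11.1% for the other 5 genes.

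Without flox sham replicate 4, the sham mean of Acot13 was 551 ± 68.8 normalised counts (SD, n = 3), against 659 ± 222 with it (n = 4). The log2 fold change of floxed tMCAO against floxed sham mice then turned to 0.19 for Acot13 (adjusted p = 0.12), to 0.08 for Acat2 (adjusted p = 0.481) and to 0.00 for Acadsb (adjusted p = 0.997). So the negative estimates of these genes depended on this library, which also had the lowest total count. The part of that low count in the result was not tested. The Acot13 estimate also turned to 0.00 (adjusted p = 0.995) without flox tMCAO replicate 4. Abca1 and Fabp5 remained called without flox sham replicate 4, at log2 fold changes of 0.59 and 0.48.

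**Figure D2:**
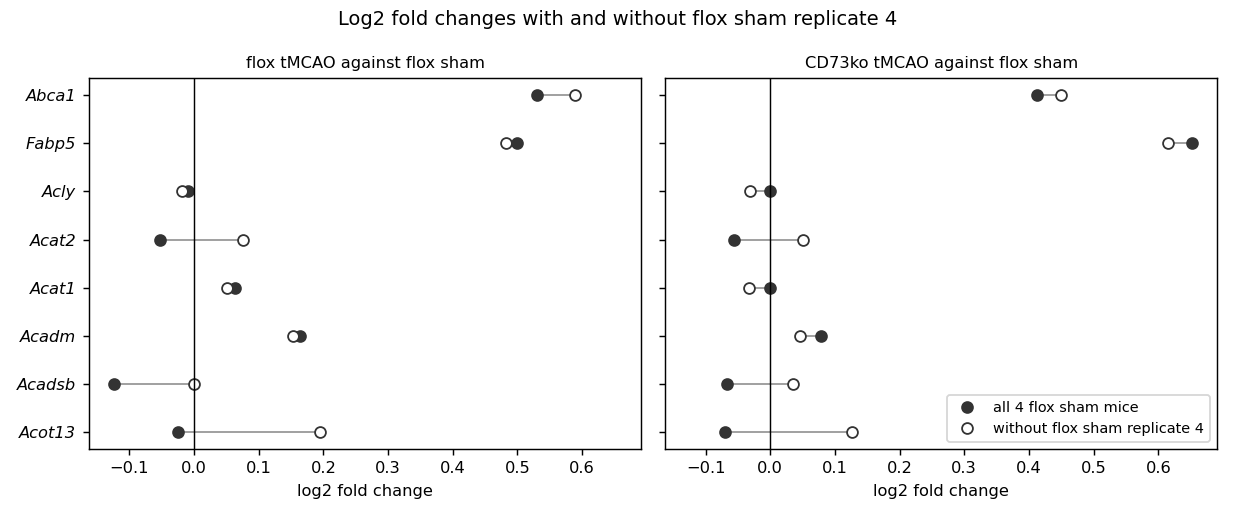
Log2 fold changes (x axis) of the 8 genes against floxed sham mice, for floxed tMCAO mice on the left and CD73ko tMCAO mice on the right, with filled points for all 4 sham mice and open points without flox sham replicate 4. Acat2, Acadsb and Acot13 cross 0 between the points on both sides, and Abca1 and Fabp5 stay above 0.4.

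The second comparison, of CD73ko tMCAO with floxed sham mice, differs from the first in genotype and shares its 4 sham mice. Abca1 had 520.2, 555, 643 and 671 normalised counts in CD73ko tMCAO mice, so CD73ko tMCAO replicate 1 stood level with flox sham replicate 4 at 519.8. The mean was 597 ± 71.2 in CD73ko tMCAO and 454 ± 50.2 in floxed sham mice (SD, n = 4 each), a 1.33-fold difference (95% interval 1.12 to 1.58, log2 fold change 0.41 ± 0.12 SE, adjusted p = 0.02). Abca1 no longer passed when CD73ko tMCAO replicate 3 (adjusted p = 0.066), CD73ko tMCAO replicate 4 (0.0663), flox sham replicate 2 (0.068) or flox sham replicate 3 (0.0934) was left out, or under median centring (0.0527).

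Fabp5 had 166, 189, 221 and 189 normalised counts in CD73ko tMCAO mice, all above the highest sham mouse at 129. The mean was 191 ± 22.7 in CD73ko tMCAO and 121 ± 7.29 in floxed sham mice (SD, n = 4 each), a 1.57-fold difference (95% interval 1.34 to 1.85, log2 fold change 0.65 ± 0.11 SE, adjusted p = 0.000382). The adjusted p stayed at or below 0.00295 in all 17 alternatives for this comparison. Abca1 and Fabp5 were the 2 of 8 members called, where 22.7% of all genes were called (16.1% higher and 6.61% lower). They were also the 2 members whose groups did not overlap, against 26.4% of all genes (16.9% higher). For Abca1 this rested on 520.2 normalised counts in CD73ko tMCAO replicate 1 against 519.8 in flox sham replicate 4, which is level within counting error. Of the calls over all genes 70.9% were higher, and this share was 60.6% with DESeq2's size factors, 50.2% with housekeeping scaling and 46.8% with median centring.

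The enzymes lay close to the sham levels in this comparison too, with a median log2 fold change of -0.03. Acly stood at 749 ± 18.0 normalised counts in CD73ko tMCAO and 748 ± 20.3 in floxed sham mice, a log2 fold change of 0.00 (95% interval -0.12 to 0.12). Acat1 stood at 766 ± 9.38 in CD73ko tMCAO and 764 ± 28.9 in floxed sham mice (SD, n = 4 each), a log2 fold change of 0.00 (95% interval -0.11 to 0.11). Their intervals reached no further than these bounds, whereas those of Acat2 (-0.30 to 0.19), Acadsb (-0.31 to 0.18) and Acot13 (-0.41 to 0.27) were wider. Acadm had a log2 fold change of 0.08 (95% interval -0.09 to 0.25) and overlapped between the groups.

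**Figure D3:**
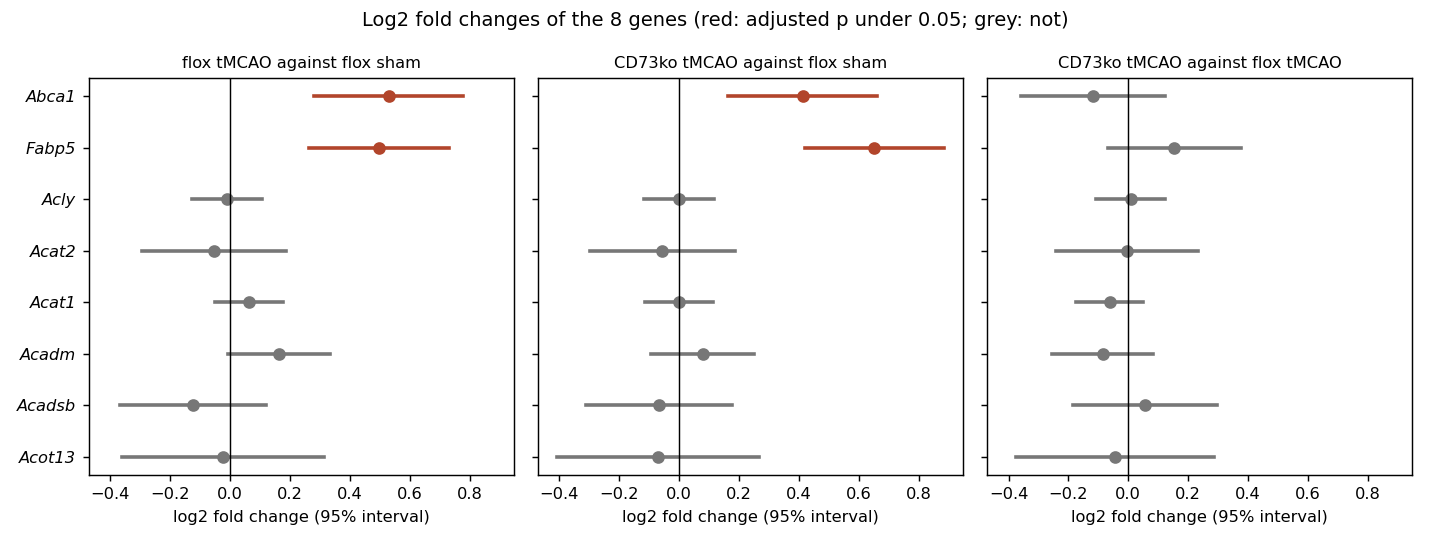
Log2 fold changes (x axis) with 95% intervals of the 8 genes in the 3 comparisons, from edgeR's quasi-likelihood fit over all 12 mice, red where the adjusted p was under 0.05. Abca1 and Fabp5 are red in both comparisons with sham mice, and every interval in the right panel, CD73ko against floxed mice after tMCAO, includes 0.

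The third comparison sets CD73ko tMCAO beside floxed tMCAO mice and asks whether the genotypes differed. None of the 8 members was called, and none of the 757 genes was (0%) by edgeR, DESeq2 or limma. At an unadjusted p under 0.05 edgeR listed 47 genes (6.21%), and the smallest unadjusted p among the members was 0.159, that of Fabp5. The log2 fold change of Fabp5 was 0.15 (95% interval -0.07 to 0.38), and that of Abca1 was -0.12 (95% interval -0.36 to 0.12), so their estimates had opposite signs. The CD73ko and floxed tMCAO mice overlapped for all 8 members, and 3.83% of all genes had groups that did not. Without flox tMCAO replicate 3 the Abca1 estimate was -0.00 (adjusted p = 0.994), and without CD73ko tMCAO replicate 3 that of Fabp5 was 0.08 (adjusted p = 0.973).

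For the enzymes the genotype difference was 0.01 for Acly (95% interval -0.11 to 0.12), -0.06 for Acat1 (95% interval -0.17 to 0.05) and -0.08 for Acadm (95% interval -0.25 to 0.08), as log2 fold changes. Those of Acat2 (-0.00, 95% interval -0.24 to 0.23), Acadsb (0.06, 95% interval -0.18 to 0.30) and Acot13 (-0.04, 95% interval -0.38 to 0.29) had wider intervals. The fit pools the spread of all 3 groups, and without flox sham replicate 4, which is in neither group compared, their SE was 0.07 for Acat2, 0.08 for Acadsb and 0.08 for Acot13, against 0.11, 0.11 and 0.16 with it. The log2 fold changes were then -0.03, 0.04 and -0.07 for these genes, and none passed.

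Set side by side within each mouse, the mean log2 level of Abca1 and Fabp5 relative to sham, minus that of the 6 enzymes, was 0.40, 0.47, 0.68 and 0.62 in CD73ko tMCAO mice. It was 0.41, 0.48, 0.56 and 0.56 in floxed tMCAO mice, and 0.19, 0.04, -0.07 and -0.16 in floxed sham mice. Abca1 and Fabp5 are the genes already called against these sham mice, so this separation is no separate result. The log2 difference of Abca1 and Fabp5 within a mouse, centred on sham, was between -0.36 and -0.07 in CD73ko tMCAO mice, at 0.48 in flox tMCAO replicate 3 and between -0.19 and -0.14 in the other floxed tMCAO mice. Floxed sham mice themselves spanned -0.23 to 0.28, so flox tMCAO replicate 3 lay above that range, CD73ko tMCAO replicates 1, 2 and 3 lay below it and the other tMCAO mice lay within it.

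**Figure D4:**
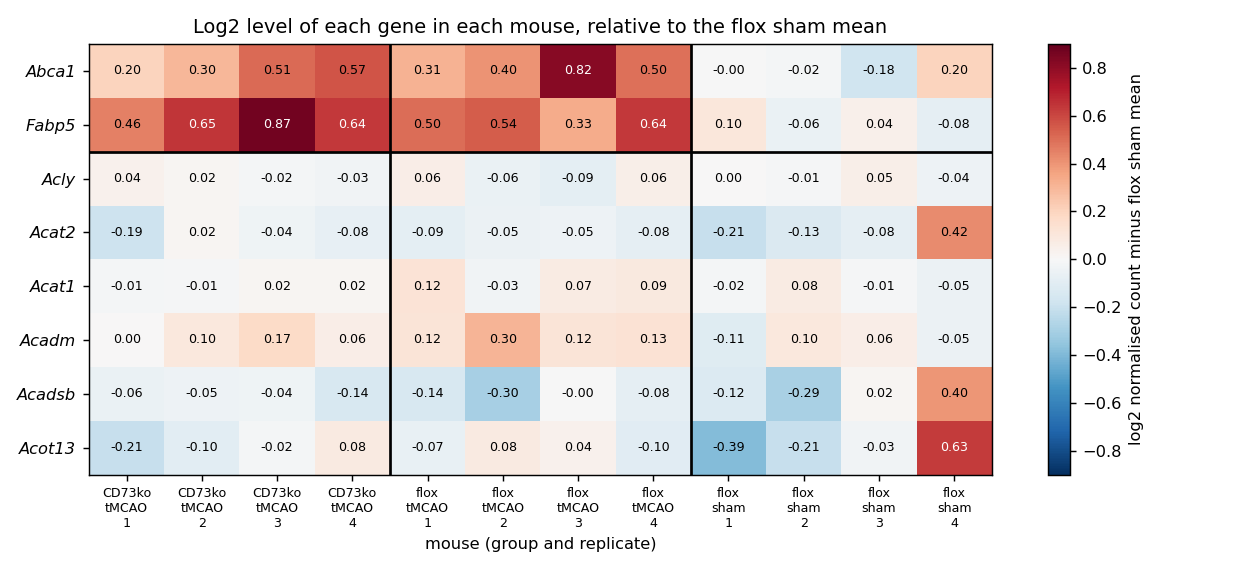
Log2 normalised count of each of the 8 genes (rows) in each of the 12 mice (columns) minus the gene's floxed sham mean, printed in each cell. The first 2 rows are positive in all 8 tMCAO mice, and the lower rows stay mostly within 0.3 of 0 apart from flox sham replicate 4, which reaches 0.63 for Acot13.

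The rise of Abca1 and Fabp5 went with a rise of microglia and macrophage markers, as the per-mouse plot of marker sums shows. Astrocyte marker sums, given below, were likewise higher in every tMCAO mouse than in every sham mouse. Of the microglia and macrophage list, 21 of 22 genes were measured, and in floxed tMCAO against sham mice 19 rose and none fell. Their summed level ranged from 10854 to 23609 normalised counts in CD73ko tMCAO mice, from 12434 to 16613 in floxed tMCAO mice and from 4148 to 4488 in floxed sham mice. None was at 0 in a group, and Msr1 was not above background in sham mice. Within CD73ko tMCAO mice, replicate 1 had the lowest marker sum and the lowest Abca1 and Fabp5, while replicate 4 had the highest sum and the highest Abca1 but not the highest Fabp5. This was not particular to microglia. In the same group replicate 1 also had the lowest astrocyte sum, at 9667, and the lowest endothelial sum, at 1099. It had the highest neuron sum, at 28204, but not the lowest oligodendrocyte sum. Within floxed tMCAO mice the order was not the same for Abca1, since replicate 3 had the lowest microglia and macrophage sum, 12434.5, and the highest Abca1. The part of any of these cell types in the result was not tested.

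In floxed tMCAO against sham mice 3 astrocyte markers rose of 8 measured (13 listed), with summed levels from 9667 to 13348 in CD73ko tMCAO, 10390.5 to 12410 in floxed tMCAO and 6392 to 6641 in floxed sham mice. Of 13 endothelial markers 8 were measured and 3 rose, with sums from 1099 to 1487 in CD73ko tMCAO, 1289 to 1577 in floxed tMCAO and 1108 to 1296 in floxed sham mice. Of 19 neuron markers 12 were measured and 6 fell, with sums from 24654 to 28204 in CD73ko tMCAO, 24725 to 26779 in floxed tMCAO and 28132 to 30323 in floxed sham mice. Of 17 oligodendrocyte markers 13 were measured and 1 rose. The oligodendrocyte sum was 14213 in flox tMCAO replicate 3, the mouse with the most Abca1, against 21724 to 24180 in CD73ko tMCAO mice, 22432 to 23764.5 in the other floxed tMCAO mice and 18706 to 20340.5 in floxed sham mice. Flox tMCAO replicate 3 also had the highest endothelial sum of all mice, at 1577. Of the floxed tMCAO mice it had the highest astrocyte sum, at 12410, and the lowest neuron sum, at 24725. None of the markers in these lists was at 0, and their part in the Abca1 and Fabp5 values was not tested.

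Of 16 lymphocyte markers 14 were measured, 5 were above background, 2 fell and none rose. Their sums lay between 172 and 286 in CD73ko tMCAO, 156 and 252 in floxed tMCAO and 238 and 304 in floxed sham mice. Of the neutrophil list the 1 gene measured, Csf3r, did not pass. In CD73ko tMCAO against sham mice 20 microglia and macrophage and 4 astrocyte markers rose, 5 neuron and 2 lymphocyte markers fell, 1 oligodendrocyte marker rose and no endothelial marker passed. No marker passed between the genotypes after tMCAO.

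**Figure D5:**
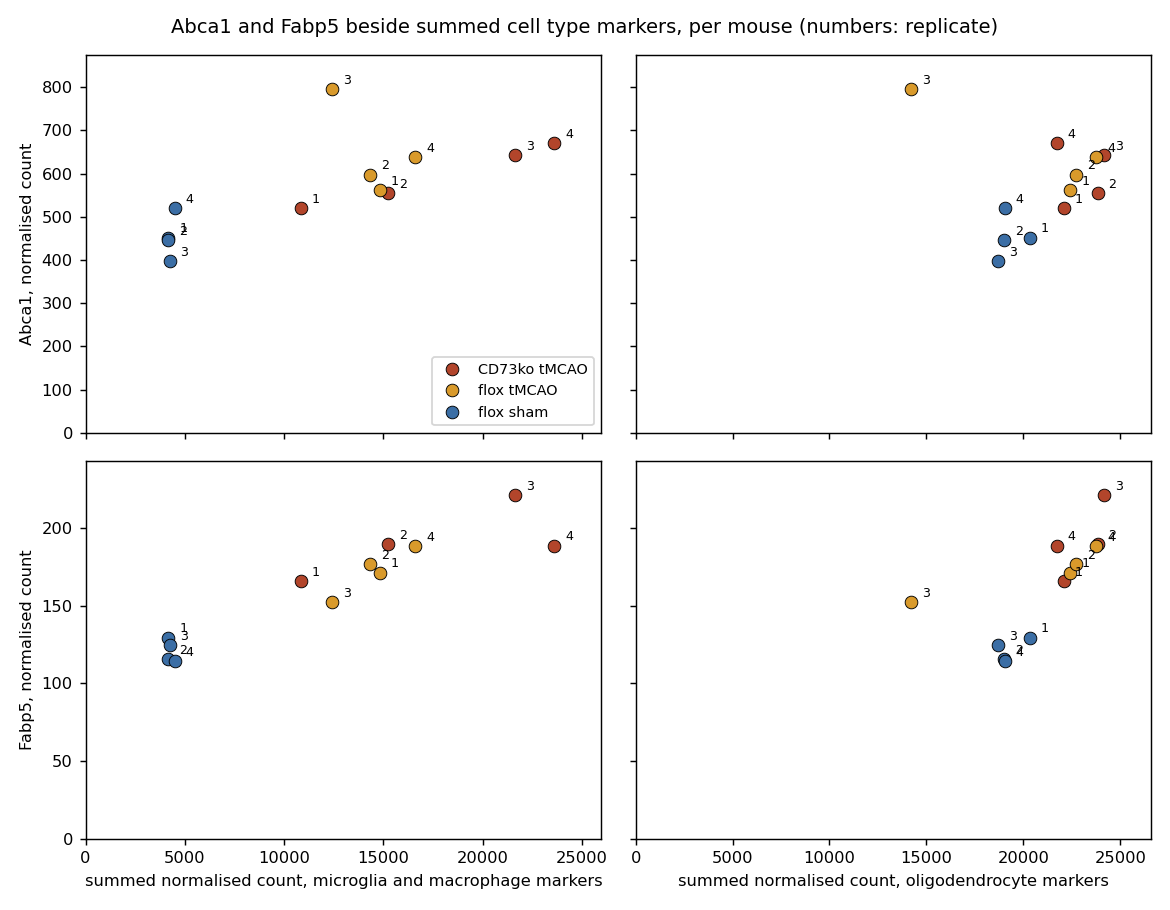
Normalised counts of Abca1 (upper row) and Fabp5 (lower row) against the summed normalised counts of microglia and macrophage markers (left) and oligodendrocyte markers (right), 1 point per mouse, numbered by replicate and coloured by group. Flox tMCAO replicate 3 has the highest Abca1, at 796, and the lowest oligodendrocyte sum, at 14213.

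Other genes of lipid and energy metabolism were read from the same fit. Of 39 further genes of cholesterol and lipoprotein handling, 2 were measured and neither passed in any comparison. Apoe, the main lipoprotein component that receives lipid from ABCA1 in brain, averaged 4489 ± 88.3 normalised counts in floxed tMCAO and 4159 ± 632 in floxed sham mice (SD, n = 4 each), a log2 fold change of 0.11 (95% interval -0.08 to 0.30). Lpl, the lipase that releases fatty acids from lipoproteins, averaged 65.5 ± 10.5 in floxed tMCAO and 55.3 ± 8.60 in floxed sham mice, a log2 fold change of 0.28 (95% interval -0.07 to 0.62). In CD73ko tMCAO mice the log2 fold changes against floxed sham mice were 0.16 for Apoe and 0.36 for Lpl (adjusted p = 0.237 and 0.128).

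Of 52 further genes of fatty acid oxidation and ketone body use, 6 were measured and none passed in any comparison. The smallest p in floxed tMCAO against sham mice was that of Hsd17b4, a peroxisomal beta-oxidation enzyme, at 294 ± 23.0 normalised counts in floxed tMCAO and 243 ± 25.2 in floxed sham mice (SD, n = 4 each, log2 fold change 0.26, adjusted p = 0.0567). It passed in 4 of 17 alternatives, with adjusted p-values from 0.0311 to 0.224. Hadh, which acts in mitochondrial beta-oxidation, had a log2 fold change of 0.21, the acyl-CoA synthetase gene Acsl4 one of -0.10 and the propionyl-CoA carboxylase gene Pcca one of -0.08 (adjusted p = 0.257, 0.443 and 0.446). Between the genotypes after tMCAO, the smallest p of this list was that of Acsl3, another acyl-CoA synthetase gene, at a log2 fold change of -0.16 (adjusted p = 0.809).

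Of 40 genes of central carbon metabolism 7 were measured, and in floxed tMCAO against sham mice Eno2, the enolase of neurons and also a member of the neuron list, fell by 0.25 on the log2 scale (adjusted p = 0.0478). That call was lost in 10 of 17 alternatives, including without flox sham replicate 4 (adjusted p = 0.0881) and without flox tMCAO replicate 3 (0.131). The glycolytic genes Tpi1 and Hk1 had log2 fold changes of -0.15 and -0.10, and Pdhb, a subunit of pyruvate dehydrogenase, one of 0.09 (adjusted p = 0.201, 0.333 and 0.391). No gene of this list passed in CD73ko tMCAO against sham mice or between the genotypes. The lists of fatty acid carriers and lipid droplets and of fatty acid synthesis, with 19 genes each, had 0 further genes measured.

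Genes of most similar pattern were sought among the 711 other genes above background, by the root mean square difference of log2 values centred on sham over the 12 mice. Nearest to Abca1 were Esam, an endothelial adhesion gene (0.14), Adamts1, a secreted metalloproteinase gene (0.15), and Lamp2, a lysosomal membrane gene (0.16). Nearest to Fabp5 were the class I gene H2-D1 (0.15), Gsn, which encodes the actin-severing protein gelsolin (0.16), and the junctional adhesion gene F11r (0.17). All 6 were called higher in floxed tMCAO against sham mice, with log2 fold changes from 0.34 for Gsn to 0.62 for H2-D1. They were picked for likeness to 2 rising genes over the same 12 mice, so their rise follows from the choice and is no separate result.

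The enzymes lay nearer to their neighbours than Abca1 or Fabp5 did. The distance is not scaled to a gene's spread, so genes that varied little lie near other such genes by construction. Nearest to Acly were Ywhaq, Atp5b and Dnajc5 (0.05, 0.05 and 0.06), and nearest to Acat1 were Atp5b, Eif2b5 and Hspa9 (0.05, 0.06 and 0.06). Nearest to Acadm were Arpc5l, Rab1a and Pdhb (0.06, 0.08 and 0.08). Acat2 lay nearest to Dnajb9, Vdac3 and Plekhb1 (0.05, 0.06 and 0.06). Acadsb had Cyp2u1, Trim3 and Acat2 nearest (0.09, 0.10 and 0.11), and Acot13 had Dnajb9, Hsd11b1 and Acat2 (0.10, 0.11 and 0.11). Thus Acat2 was among the nearest genes of the other 2 enzymes that were high in flox sham replicate 4. That shared high value enters the distance itself, so this likeness is no separate result.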

How the data were processed

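The authors deposited a series value table of raw counts of 770 genes and 14 control probes (8 negative, 6 positive) in 12 mice; the counting software and any background step are not given in the sources used here. A further 2 deposited tables of normalised values were not used, because their 11 sample names match no label. Groups came from the sample titles, each library being a separate mouse. The 13 housekeeping genes and the control probes stayed out of the tests. Tests used edgeR 4.0.16 in R 4.3.3 (TMM, quasi-likelihood F test, 1 coefficient per group over 12 mice, Benjamini-Hochberg over 757 genes at 0.05); the standard error is the size of the log2 fold change divided by the root of F, with 14.4 degrees of freedom for intervals. Above background means over the negative probe mean plus 2 SD in 3 or more of the 4 mice of any group, which held for 712 genes. The tests were also run on simulated counts. Replicates of a group always differed by more than counting error (chi-square over its degrees of freedom 1.76 or more).

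The 8 genes, the 5 pathway and 7 marker lists and the motifs were chosen with earlier results of these data known. Text genes were the 8 members, up to 4 genes of smallest p per pathway list, and the 3 genes nearest each member in pattern; marker genes with the highest counts, also in the rule, are given only as sums. Alternatives were DESeq2's size factors, housekeeping scaling, median centring, DESeq2 1.42.0 and limma 3.58.1 (log2(scaled count + 1)) as tests, a background filter, background subtraction, only the groups compared, a replicate block, and each mouse left out.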

Additional observations from a re-analysis of the deposited data

Results flagged for a closer look

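Of the 24 sets of 4 mice examined (8 genes in 3 groups), 2 held a mouse whose distance from the nearest other mouse took up more of the group's whole range than Dixon's 95% critical value for 4 values, which chance passes in about 1 set of 20. Acat2 stood at 357.5 normalised counts in flox sham replicate 4, far above the other floxed sham mice, whose mean was 242 ± 10.7 (SD, n = 3). Acadm stood at 305.2 normalised counts in flox tMCAO replicate 2, while the other floxed tMCAO mice had 268, 269 and 271.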

How the results depend on the processing

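The members called in floxed tMCAO against sham mice were 2 under every alternative, and between the genotypes after tMCAO 0 of the 8 members and 0 of all genes were called under every alternative. In CD73ko tMCAO against sham mice the members called were 1 with median centring, and 1 to 2 with single mice left out. Over all genes, 125 to 206 were called in floxed tMCAO against sham mice and 110 to 229 in CD73ko tMCAO against sham mice with single mice left out; the lowest, 110, was without CD73ko tMCAO replicate 3. The replicate block left Abca1 and Fabp5 called (log2 fold changes 0.51 and 0.50 in floxed tMCAO, 0.39 and 0.65 in CD73ko tMCAO mice, against sham) and called 145 and 146 genes. Mice with the same number did not deviate together (correlations from -0.248 to 0.169), so the numbers were not taken as pairs. Batch was not run as a block, because no batch was given in the sources used here. Estimates near 0 changed sign without a call. As log2 fold changes between the genotypes after tMCAO, Acly was -0.00954 with DESeq2's size factors, -0.00981 in the DESeq2 test, -0.0100 with housekeeping scaling, -0.0158 with median centring, -0.0163 with only genes above background and -0.0123 with only the groups compared. In CD73ko tMCAO against sham mice Acly was 0.00242 by limma, Acadm -0.00609 with housekeeping scaling, and Acat1 -0.0246 with DESeq2's size factors, -0.0252 in the DESeq2 test, -0.0806 with housekeeping scaling, -0.0694 with median centring, -0.0195 with only genes above background and -0.000258 with the negative control mean subtracted. With single mice left out, floxed tMCAO against sham mice gave -0.0324 to 0.0171 for Acly, -0.122 to 0.0757 for Acat2, -0.223 to 0.000489 for Acadsb and -0.152 to 0.194 for Acot13. CD73ko tMCAO against sham mice gave -0.0430 to 0.0121 for Acly, -0.127 to 0.0505 for Acat2, -0.0332 to 0.00473 for Acat1, -0.188 to 0.0355 for Acadsb and -0.196 to 0.127 for Acot13. The genotypes after tMCAO gave -0.0305 to 0.0324 for Acly, -0.0320 to 0.00728 for Acat2 and -0.0159 to 0.100 for Acadsb. The causes were not tested. Leaving flox sham replicate 4 out of the genotype fit, chosen after seeing the data, called 0 genes, and the alternatives for Eno2 and Hsd17b4 were also added then.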
